A study of Mus musculus with 6 samples.

Results

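The stanniocalcins and calcium transport genes were followed in mouse pancreatic tumour cells (KPCY) in which Pthlh, which encodes parathyroid hormone-related protein, was lowered by short hairpin RNA. The members were 8 genes chosen by name among the 24493 of the deposited table: the hormone genes Stc1 and Stc2, the pump genes Atp2a2, Atp2b1 and Atp2b4, the release channel gene Itpr3, and Stim1 and Orai1 of store-operated entry. The 6 libraries fall into 3 groups of 2, cells with Pthlh hairpin 1, cells with Pthlh hairpin 2 and cells with a non-targeting hairpin (shNT), all C57BL/6 KPCY cells carrying a transduced hairpin. KPCY denotes a genetically engineered mouse model of pancreatic tumours marked by a yellow fluorescent lineage label; the labels give no allele, age or sex. The series design speaks of 2 parental clones, the labels tie no library to a clone, and they describe both culture in DMEM and sorting from tumours, so the clone behind each library and whether its cells came straight from tumours are not settled here. No label states whether the 2 libraries of a group had separate cultures or animals behind them, so the p-values reflect library-to-library spread alone, and this may be technical. Libraries are numbered by the replicate number in their titles.

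Stanniocalcins are secreted glycoproteins named after a fish gland, where the hormone limits calcium uptake; in mammals they act mainly close to the cells that make them. Calcium is held low in the cytosol by SERCA pumps, which fill the endoplasmic reticulum, and by PMCA pumps, which export it across the plasma membrane. Receptors for inositol trisphosphate (IP3) release the stored calcium, and STIM proteins sense an emptied store and open ORAI channels to refill it. Parathyroid hormone-related protein shares a receptor with parathyroid hormone, a main regulator of blood calcium.

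Expression is given as TPM, transcript abundance scaled for transcript length and to a total of 1000000 per library. The depth behind each value is unknown. The Mir6236 entry alone took 19.7% to 20.4% of all TPM with hairpin 1, 21.4% to 23.4% with hairpin 2 and 24.3% to 34.1% in shNT. The median change of all tested genes, both hairpins against shNT, was 0.10 (log2) in deposited TPM, 0.01 after scaling to median ratios and -0.04 with small-RNA entries such as Mir6236 removed. Whether the Mir6236 share has a part in the results was not tested beyond these scalings. Changes are differences in log2(TPM + 1) with their standard error (SE), from limma over all 11549 genes with at least 1 TPM in at least 2 libraries, and a change passed at a Benjamini-Hochberg adjusted p below 0.05. The scale understates the change of low genes. In bulk samples, fewer cells of a type and less RNA per cell cannot be told apart.

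The targeted gene, Pthlh, stood at 0 and 0.106 TPM with hairpin 1 and at 0.0423 and 0.263 TPM with hairpin 2, against 0.752 and 0.966 TPM in shNT. All 4 knockdown libraries were below both shNT libraries. Tested without the expression filter, Pthlh fell by 0.76 ± 0.10 (log2, SE) in the comparison of both hairpins with shNT (limma's adjusted p = 0.0120) and fell by 0.82 ± 0.12 with hairpin 1 (limma's adjusted p = 0.00837). With hairpin 2 the change was -0.69 ± 0.12 and did not pass (limma's adjusted p = 0.0583; 0.0573 to 0.200 over 14 alternatives). The call for both hairpins was lost with them pooled as 1 group (limma's adjusted p = 0.0980) and without library 1 of shNT (0.0575), library 2 of shNT (0.0666), library 1 of hairpin 1 (0.0729), library 2 of hairpin 1 (0.0656) or library 1 of hairpin 2 (0.0513). That of hairpin 1 was lost without library 2 of shNT (limma's adjusted p = 0.0527), library 1 of hairpin 1 (0.0835) or library 2 of hairpin 1 (0.0628).

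The keratins Krt8, Krt18 and Krt19 were at 418 TPM or more in each library, while Epcam, another epithelial marker, did not exceed 0.605 TPM. None of 8 fibroblast markers and none of 8 lymphocyte markers reached 1 TPM in any library, and the summed fibroblast markers lay at 0.456 to 0.475 TPM with hairpin 1, 0.442 to 0.453 with hairpin 2 and 0.388 to 0.612 in shNT. Of 8 endothelial markers only Egfl7 passed 1 TPM, and their sum was 6.86 to 7.51 TPM with hairpin 1, 6.12 to 8.06 with hairpin 2 and 6.03 to 6.67 in shNT. Of 8 myeloid markers Cd14 and Cd68 passed 1 TPM, and their list summed to 76.7 to 78.9 TPM with hairpin 1, 62.1 to 63.0 with hairpin 2 and 69.4 to 71.4 in shNT, most of it Cd14. In the other lists 2 of 8 acinar, 0 of 6 islet, 2 of 6 neutrophil and 1 of 6 erythroid markers passed 1 TPM. The acinar list summed to 13.9 TPM in both hairpin 1 libraries and 12.2 in both hairpin 2 libraries, against 14.9 to 20.4 in shNT. Most of each sum was Cela1, at 10.8 to 19.5 TPM over the libraries. The neutrophil list summed to 0.968 to 1.37 TPM with hairpin 1 and 2.81 to 3.59 with hairpin 2, against 1.60 to 1.73 in shNT. The part of these markers in the results was not tested.

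Of the 8 members, 7 passed the expression filter and Atp2b4 did not. In the joint comparison, which sets the mean of both hairpin groups against shNT, Stc2, Atp2b1 and Stim1 were higher and Stc1 was lower. Among all tested genes, 39.4% were called in this comparison, 27.3% higher and 12.1% lower. The members' median change was 0.10, against 0.10 for all genes. Atp2a2, Itpr3 and Orai1 did not pass. After scaling to median ratios Stc2 and Atp2b1 were higher and Stc1 was lower, with 33.7% of all genes called, 15.7% higher and 18% lower. With small-RNA entries removed Stc2 was higher and Stc1 and Orai1 were lower, where 2884 of 11286 genes were called, 961 higher and 1923 lower. All 4 knockdown libraries lay outside the shNT range for Stc1, Stc2, Stim1 and Orai1, as for 40.7% of tested genes. Stc2 and Stim1 lay above it, as did 30.3% of genes, and Stc1 and Orai1 below it, as did 10.4%.

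With both hairpins pooled as 1 group of 4 libraries, so that their difference entered the spread, limma called 0 of the 7 members and Stc1 and Stc2 had an unadjusted p under 0.05 (adjusted p = 0.135 and 0.225). All genes together gave 1 call in that fit. A call in the joint comparison therefore rests on the spread within groups, and the values of each hairpin stand beside it below.

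The stanniocalcin genes moved in opposite directions. Stc1 stood at 0.484 and 0.508 TPM with hairpin 1 and at 0.979 and 1.00 TPM with hairpin 2, against 1.95 and 1.98 TPM in shNT. The groups were well separated, with hairpin 2 between hairpin 1 and shNT. The Stc1 mean was 25.2% of shNT with hairpin 1 and 50.3% with hairpin 2. Stc2 stood at 16.7 and 17.7 TPM with hairpin 1 and at 3.96 and 4.64 TPM with hairpin 2, against 1.97 and 2.85 TPM in shNT. Hairpin 2 again lay between hairpin 1 and shNT, and no group overlapped another. The Stc2 mean was 7.15 times that of shNT with hairpin 1 and 1.78 times with hairpin 2.

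**Figure D1:**
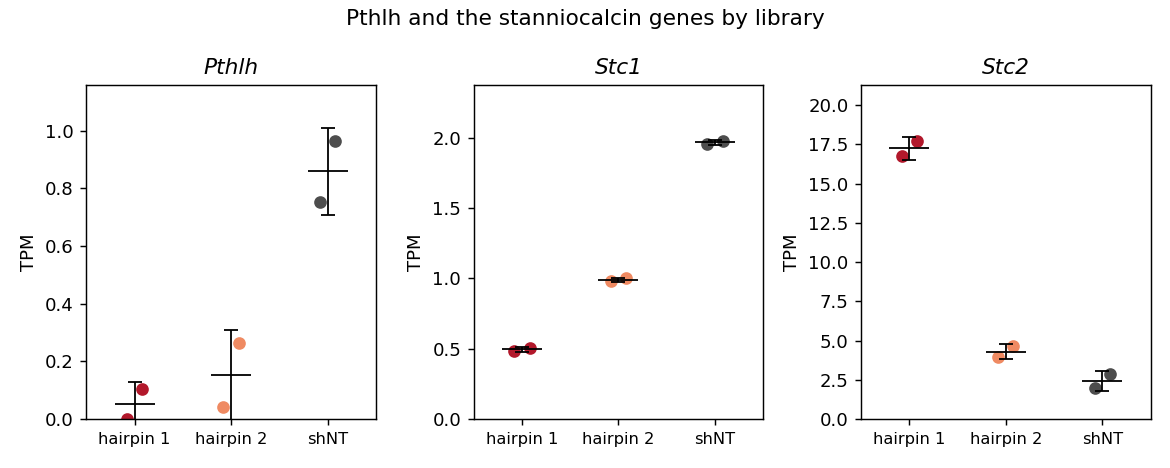
TPM of Pthlh, Stc1 and Stc2 (vertical axes, linear, from 0) in each library of hairpin 1, hairpin 2 and shNT; points are libraries, bars the mean and SD (n = 2). Stc1 fell to means of 0.496 and 0.990 TPM with hairpins 1 and 2, against 1.97 TPM in shNT, while Stc2 reached 17.2 and 4.30 TPM, against 2.41 TPM in shNT.

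In limma, Stc1 fell by 0.78 ± 0.09 (log2, SE) in the joint comparison (adjusted p = 0.00316), fell by 0.99 ± 0.10 with hairpin 1 (adjusted p = 0.00119) and fell by 0.58 ± 0.10 with hairpin 2 (adjusted p = 0.0328). Stc1 passed the expression filter through both shNT libraries and library 2 of hairpin 2, so its passage is not independent of its fall. Stc2 rose by 1.54 ± 0.12 in the joint comparison (limma's adjusted p = 0.00126), by 2.43 ± 0.14 with hairpin 1 (adjusted p = 0.000213) and by 0.64 ± 0.14 with hairpin 2 (adjusted p = 0.0474). With hairpin 1 it had the 31st largest rise of 11549 genes, and in the joint comparison the 44th. Stc1 was 170th from the lowest change in the joint comparison.

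The hairpin 1 calls of both genes held without any 1 library, but those of hairpin 2 did not. The Stc1 call with hairpin 2 was lost without library 1 of shNT (limma's adjusted p = 0.0726), library 2 of shNT (0.0534), library 1 of hairpin 1 (0.0793), library 2 of hairpin 1 (0.0796), library 1 of hairpin 2 (0.170) or library 2 of hairpin 2 (0.161). The Stc2 call with hairpin 2 was lost without library 1 of shNT (limma's adjusted p = 0.0606), library 1 of hairpin 1 (0.109), library 2 of hairpin 1 (0.109), library 1 of hairpin 2 (0.170) or library 2 of hairpin 2 (0.221), and after scaling to median ratios (0.0681). Both hairpin 2 calls were also lost with the replicate block and with the compared groups alone. That of Stc2 was lost too without a filter, after quantile normalization and without a variance trend. The Stc1 change was -1.36 in the joint comparison with a pseudocount of 0.1.

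The hairpins differed for both genes. Hairpin 2 minus hairpin 1 was 0.41 for Stc1 (95% interval 0.15 to 0.67; limma's adjusted p = 0.0267) and -1.79 for Stc2 (95% interval -2.13 to -1.44; limma's adjusted p = 0.000697). The Stc1 difference lost its call without library 1 of hairpin 1 (limma's adjusted p = 0.0908), library 2 of hairpin 1 (0.0831), library 1 of hairpin 2 (0.0943) or library 2 of hairpin 2 (0.0992). The ratio of Stc2 to Stc1 TPM, which no scaling of a library alters, was 34.6 and 34.9 with hairpin 1 and 4.04 and 4.64 with hairpin 2, against 1.01 and 1.44 in shNT. Stc2 thus made up 97.2% of the summed stanniocalcin TPM in both hairpin 1 libraries and 80.2% and 82.3% in the hairpin 2 libraries, against 50.2% and 59.0% in shNT. The summed TPM was 17.7 ± 0.728 with hairpin 1 and 5.29 ± 0.496 with hairpin 2, against 4.38 ± 0.636 in shNT (SD, n = 2).

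Stc1 lies on chromosome 14 from 69029238 to 69041804 on the plus strand, and Stc2 on chromosome 11 from 31357307 to 31370074 on the minus strand (mm10, GENCODE M21). The median change of the 396 tested genes on chromosome 14 with hairpin 1 was 0.14, and that of the 941 on chromosome 11 was 0.17, against 0.11 for all genes, so Stc1 and Stc2 stood 1.13 below and 2.26 above their chromosomes' medians. Promoter windows of RefSeq (GRCm38.p6) were found for 6 of 8 members, all but Stc1 and Atp2a2. The Stc2 sequence below is the 250 bases before the RefSeq transcription start (chr11:31370062-31370311, minus strand), of which 13 lie within the GENCODE gene, and is shown because Stc2 had the largest change of the members.
Stc2 promoter: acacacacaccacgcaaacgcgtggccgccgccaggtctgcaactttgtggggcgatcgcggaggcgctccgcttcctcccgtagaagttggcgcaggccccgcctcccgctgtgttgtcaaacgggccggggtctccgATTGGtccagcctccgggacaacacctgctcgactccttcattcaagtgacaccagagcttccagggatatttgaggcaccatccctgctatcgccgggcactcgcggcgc
The 4 motifs searched on both strands were GGGCGG (the GC box), CCAAT (bound by the factor NF-Y), ACGTG (the core of the hypoxia response element) and TGACG (the core of the cAMP response element). Capitals mark their matches. The Stc2 window held 1 CCAAT, read on the opposite strand, and none of the other motifs. Among the 32851 promoter windows of the same length, 32.7% held GGGCGG, 33.8% CCAAT, 16.6% ACGTG and 17.8% TGACG.

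The genes whose profile over the 6 libraries was closest to that of Stc1 were Fdps, Mapk6 and Lss, by the root mean square distance between centred log2(TPM + 1) values. These distances were 0.0335, 0.0390 and 0.0414 (log2). At the low level of Stc1 the added 1 compresses its change, and the distances under other pseudocounts were not tested. In TPM, Stc1 averaged 25.2% of shNT with hairpin 1, where Fdps averaged 290 TPM against 597 TPM in shNT, a smaller fall. Fdps and Lss encode enzymes of isoprenoid and sterol synthesis, and Mapk6 an atypical MAP kinase. Fdps stood at 291 and 289 TPM with hairpin 1 and at 373 and 388 TPM with hairpin 2, against 592 and 602 TPM in shNT. The closest to Stc2 were Prl2c2, Hsd17b14 and Rasl11a at 0.142, 0.160 and 0.172 (log2). Prl2c2 belongs to a family of near-identical proliferin genes, so its value is uncertain. Hsd17b14, a short-chain dehydrogenase, stood at 14.6 and 13.8 TPM with hairpin 1 and at 4.25 and 4.30 TPM with hairpin 2, against 2.27 and 2.67 TPM in shNT.

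Genes named as stanniocalcin partners were examined next. STC1 and STC2 inhibit PAPP-A, a protease that cleaves IGF binding proteins. Its gene Pappa did not exceed 0.0244 TPM and Pappa2 did not exceed 0.143 TPM in any library. Of 8 partner genes in the table, 5 were tested, 2 rose and 2 fell in the joint comparison, and none passed with hairpin 2. Over all tested genes 27.3% were higher and 12.1% lower in the joint comparison. Igfbp5, an IGF binding protein, stood at 47.9 and 40.5 TPM with hairpin 1 and at 1.33 and 1.21 TPM with hairpin 2, against 0.873 and 1.05 TPM in shNT. It rose by 4.52 ± 0.10 (log2, SE) with hairpin 1 (limma's adjusted p = 2.07e-05), and with hairpin 2 the change was 0.21 (limma's adjusted p = 0.216). Igfbp4, a PAPP-A substrate, averaged 788 ± 16.6 TPM with hairpin 1 and 1010.1 ± 10.1 TPM with hairpin 2, against 1147 ± 93.6 TPM in shNT (SD, n = 2), and fell by 0.54 ± 0.08 (log2, SE) with hairpin 1 (limma's adjusted p = 0.00293). Slc20a1, a sodium-phosphate cotransporter, averaged 19.7 ± 0.782 TPM with hairpin 1 and 41.2 ± 0.304 TPM with hairpin 2, against 42.8 ± 0.332 TPM in shNT, and fell by 1.08 ± 0.05 with hairpin 1 (limma's adjusted p = 0.000110).

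Among the calcium pumps, the plasma membrane pump Atp2b1 rose through hairpin 1 and the endoplasmic reticulum pump Atp2a2 did not pass. Atp2b1, the widely expressed PMCA pump (chromosome 10, 98914406 to 99026143, plus strand), stood at 29.6 and 28.0 TPM with hairpin 1 and at 21.3 and 21.1 TPM with hairpin 2, against 21.1 and 20.8 TPM in shNT. The hairpin 1 libraries were above all others, and the hairpin 2 and shNT libraries overlapped. In limma, Atp2b1 rose by 0.23 ± 0.04 (log2, SE) in the joint comparison (adjusted p = 0.0104) and by 0.44 ± 0.05 with hairpin 1 (adjusted p = 0.00127). With hairpin 2 the change was 0.01 (95% interval -0.10 to 0.13; limma's adjusted p = 0.853). The difference between hairpin 2 and hairpin 1 was -0.43 (95% interval -0.54 to -0.31; limma's adjusted p = 0.00190). With small-RNA entries removed the hairpin 1 change was 0.27 and did not pass (limma's adjusted p = 0.0567), nor did the joint change of 0.08 (0.567). The joint change was 0.14 after scaling to median ratios (limma's adjusted p = 0.0464), where that with hairpin 2 was -0.08 (limma's adjusted p = 0.338).

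Atp2a2, which encodes SERCA2 (chromosome 5, 122453513 to 122502225, minus strand), was the most abundant member. It stood at 225 and 220.4 TPM with hairpin 1 and at 201 and 207 TPM with hairpin 2, against 208 and 199 TPM in shNT. The hairpin 1 libraries were above all others. The change was 0.07 ± 0.04 (log2, SE) in the joint comparison (limma's adjusted p = 0.241) and 0.13 ± 0.05 with hairpin 1 (limma's adjusted p = 0.0678; 0.0204 without library 1 of shNT). After scaling to median ratios the joint change was -0.03 (limma's adjusted p = 0.652), so its sign depends on scaling. Under quantile normalization the hairpin 1 change was -0.01 (limma's adjusted p = 0.900). Hairpin 2 minus hairpin 1 was -0.13 (95% interval -0.24 to -0.01; limma's adjusted p = 0.0863), which passed without library 1 of shNT (0.0243) or library 2 of shNT (0.0238). Atp2a2 made up 96.3% to 97.1% of SERCA TPM in each library, while Atp2a1, the muscle pump, did not exceed 0.622 TPM. The paralog Atp2a3 stood at 7.88 and 8.24 TPM with hairpin 1 and at 6.75 and 6.21 TPM with hairpin 2, against 6.27 and 6.10 TPM in shNT. Atp2a3 rose by 0.33 ± 0.07 (log2, SE) with hairpin 1 (limma's adjusted p = 0.00894). Its joint rise of 0.20 ± 0.06 passed in deposited TPM (limma's adjusted p = 0.0415) but not after scaling to median ratios (0.197).

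Atp2b4, another PMCA pump (chromosome 1, 133699457 to 133801041, minus strand), was barely detected. It stood at 0.151 and 0.141 TPM with hairpin 1 and at 0.195 and 0.190 TPM with hairpin 2, against 0.245 and 0.192 TPM in shNT. The hairpin 1 libraries were the lowest, and hairpin 2 overlapped shNT. Tested without the expression filter, its change was -0.06 (log2) in the joint comparison (limma's adjusted p = 0.252). With hairpin 1 it was -0.09 (limma's adjusted p = 0.142; 0.0446 without library 2 of shNT). Atp2b1 made up 98.6% to 99.3% of PMCA TPM in each library. Atp2b2 and Atp2b3 did not exceed 0.0761 and 0.0569 TPM.

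**Figure D2:**
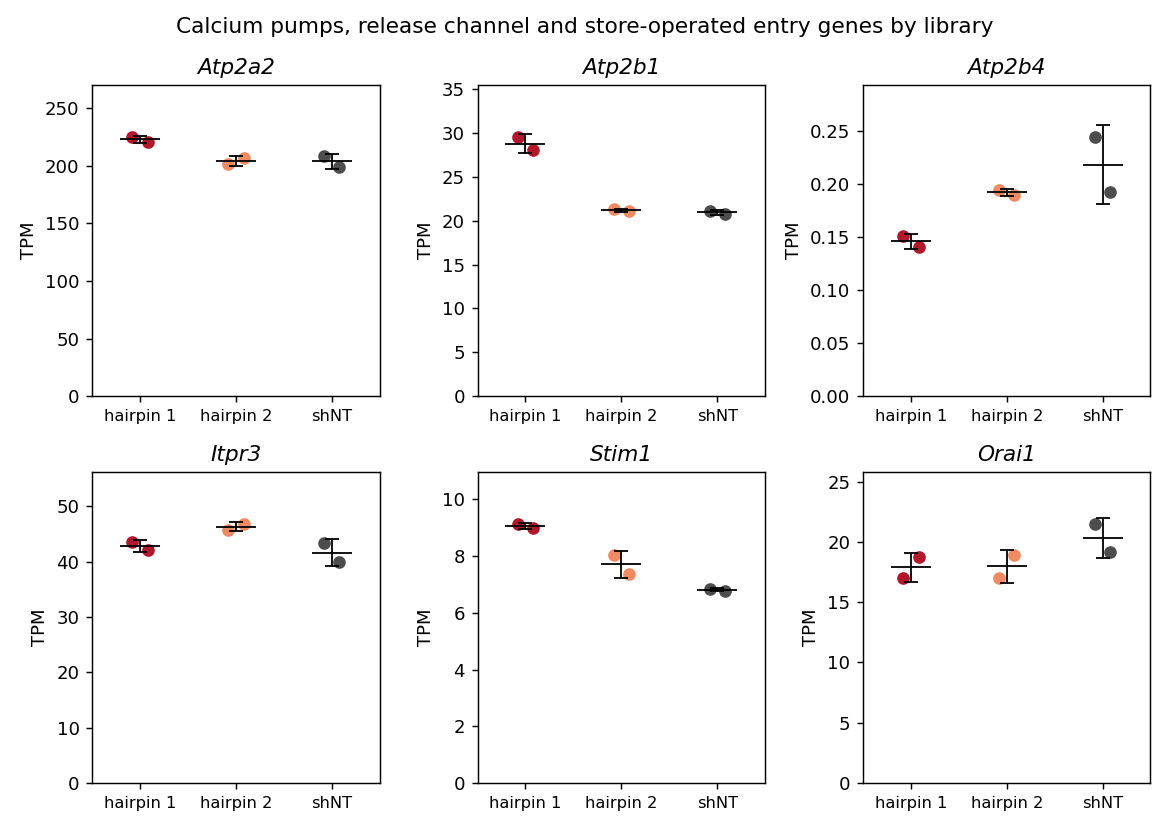
TPM (vertical axes, linear, from 0) of the pump genes Atp2a2, Atp2b1 and Atp2b4, the release channel gene Itpr3, and Stim1 and Orai1, in each library of hairpin 1, hairpin 2 and shNT; points are libraries, bars the mean and SD (n = 2). Atp2b1 averaged 28.8 TPM with hairpin 1 and 21.2 TPM with hairpin 2, against 21.0 TPM in shNT, and the Orai1 libraries of both hairpins lay below those of shNT.

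The calcium release channel Itpr3, the type 3 IP3 receptor (chromosome 17, 27057304 to 27122223, plus strand), did not pass in any comparison. It stood at 43.6 and 42.1 TPM with hairpin 1 and at 45.8 and 46.9 TPM with hairpin 2, against 43.4 and 39.9 TPM in shNT. The hairpin 2 libraries were the highest, and hairpin 1 overlapped shNT. The change in log2(TPM + 1) was 0.10 ± 0.05 (SE) in the joint comparison (95% interval -0.02 to 0.21; limma's adjusted p = 0.153; 0.0464 without library 1 of shNT). It was 0.04 with hairpin 1 (limma's adjusted p = 0.562) and 0.15 with hairpin 2 (limma's adjusted p = 0.124). After scaling to median ratios the joint change was 0.00 (limma's adjusted p = 0.951), and with small-RNA entries removed it was -0.06 (limma's adjusted p = 0.698).

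The related receptor gene Itpr2 rose with hairpin 1. Itpr2 stood at 3.72 and 3.64 TPM with hairpin 1 and at 0.657 and 0.711 TPM with hairpin 2, against 0.745 and 0.726 TPM in shNT. It rose by 1.43 ± 0.10 (log2, SE) with hairpin 1 (limma's adjusted p = 0.000337), and with hairpin 2 the change was -0.04 (limma's adjusted p = 0.785). Itpr3 took 86.2% and 86.0% of IP3 receptor TPM with hairpin 1 and at least 90.8% in each library of hairpin 2 and shNT. Itpr2 took 7.36% and 7.44% with hairpin 1 and 1.31% and 1.39% with hairpin 2, against 1.57% and 1.65% in shNT. Because Itpr2 passed the filter through hairpin 1 alone, its passage is not independent of its rise.

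In store-operated entry, the calcium sensor Stim1 was higher and the pore subunit Orai1 was lower in all 4 knockdown libraries than in either shNT library, but Orai1 was not called. Stim1 (chromosome 7, 102267806 to 102437319, plus strand) stood at 9.15 and 8.99 TPM with hairpin 1 and at 8.04 and 7.37 TPM with hairpin 2, against 6.86 and 6.78 TPM in shNT. No group overlapped another. In limma, Stim1 rose by 0.26 ± 0.05 (log2, SE) in the joint comparison (adjusted p = 0.0162) and by 0.37 ± 0.06 with hairpin 1 (adjusted p = 0.00572). With hairpin 2 the change was 0.15 (95% interval 0.00 to 0.31; limma's adjusted p = 0.158).

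The Stim1 call depended on scaling. The joint change was 0.18 after scaling to median ratios (limma's adjusted p = 0.0584), 0.17 after quantile normalization (0.0678) and 0.12 with small-RNA entries removed (0.413). It was also lost without library 1 of hairpin 1 (limma's adjusted p = 0.0561) or library 2 of hairpin 1 (0.0512). With small-RNA entries removed the hairpin 1 change was 0.21 (limma's adjusted p = 0.182). The difference between hairpin 2 and hairpin 1 was -0.21 (95% interval -0.37 to -0.06; limma's adjusted p = 0.0437), a call lost without library 1 of hairpin 1 (0.166), library 2 of hairpin 1 (0.138), library 1 of hairpin 2 (0.0703) or library 2 of hairpin 2 (0.201). The median tested gene on chromosome 7 changed by 0.22 with hairpin 1, so Stim1 stood 0.15 above its chromosome's median.

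The 250 bases before the RefSeq start of Stim1 (chr7:102267569-102267818, plus strand, GRCm38.p6), of which 13 lie within the GENCODE gene, are shown for comparison with Stc2. Both genes were called higher with hairpin 1, as was Atp2b1, whose windows are not shown.
Stim1 promoter: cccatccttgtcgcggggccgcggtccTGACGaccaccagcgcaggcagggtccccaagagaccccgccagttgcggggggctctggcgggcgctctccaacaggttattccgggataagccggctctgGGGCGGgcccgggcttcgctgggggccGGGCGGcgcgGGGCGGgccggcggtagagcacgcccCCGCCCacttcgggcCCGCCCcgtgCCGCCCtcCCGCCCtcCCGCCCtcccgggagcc
Capitals mark the motifs named above, and no matches of different motifs overlapped in either window. The Stim1 window held 8 matches to GGGCGG and 1 to TGACG, with none to CCAAT or ACGTG. Its G and C content was 78.4%, against 64.4% for Stc2. Windows of Atp2b1 (4 and 3 matches in its 2 windows), Itpr3 (1) and Orai1 (3) also held GGGCGG, and that of Atp2b4 did not.

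Orai1 (chromosome 5, 123015074 to 123030456, plus strand) stood at 17.0 and 18.7 TPM with hairpin 1 and at 17.0 and 18.9 TPM with hairpin 2, against 21.5 and 19.2 TPM in shNT. The hairpin groups covered the same range, and the highest of their libraries lay just under the lower shNT library. The change was -0.17 ± 0.07 (log2, SE) in the joint comparison (95% interval -0.36 to 0.01; limma's adjusted p = 0.118). It was -0.26 after scaling to median ratios (limma's adjusted p = 0.0533) and -0.33 with small-RNA entries removed, where it passed (limma's adjusted p = 0.0464), as did its hairpin 1 change of -0.35 (limma's adjusted p = 0.0436). Hairpin 2 minus hairpin 1 was 0.01 (95% interval -0.21 to 0.22; limma's adjusted p = 0.957).

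The share of Orai1 among ORAI genes does not depend on scaling. It was 32.8% and 34.9% with hairpin 1 and 37.0% and 39.7% with hairpin 2, against 46.4% and 45.6% in shNT, with no overlap between groups. Orai2, which forms channels with Orai1, stood at 25.5 and 26.0 TPM with hairpin 1 and at 20.8 and 21.3 TPM with hairpin 2, against 17.4 and 17.2 TPM in shNT. It was the most abundant ORAI gene in both hairpin groups and Orai1 the most abundant in shNT. Orai2 rose by 0.41 ± 0.04 (log2, SE) in the joint comparison (limma's adjusted p = 0.00189; 0.00405 after scaling to median ratios) and by 0.55 ± 0.04 with hairpin 1 (limma's adjusted p = 0.000533). Orai3 took 18.0% and 16.6% of ORAI TPM with hairpin 1 and 17.7% and 15.5% with hairpin 2, against 15.9% and 13.6% in shNT.

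Stim1 took 56.5% and 56.2% of STIM TPM with hairpin 1 and 60.0% and 56.3% with hairpin 2, against 54.5% in both shNT libraries. Its paralog Stim2 stood at 7.03 and 7.01 TPM with hairpin 1 and at 5.37 and 5.71 TPM with hairpin 2, against 5.73 and 5.66 TPM in shNT. Stim2 rose by 0.26 ± 0.06 (log2, SE) with hairpin 1 (limma's adjusted p = 0.0168), a call lost after scaling to median ratios (0.0541). The ratio of Stim1 to Orai1 TPM was 0.537 and 0.480 with hairpin 1 and 0.473 and 0.389 with hairpin 2, against 0.319 and 0.354 in shNT. All 4 knockdown libraries were above both shNT libraries in this ratio, and the hairpin groups did not overlap, with hairpin 1 the higher.

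**Figure D3:**
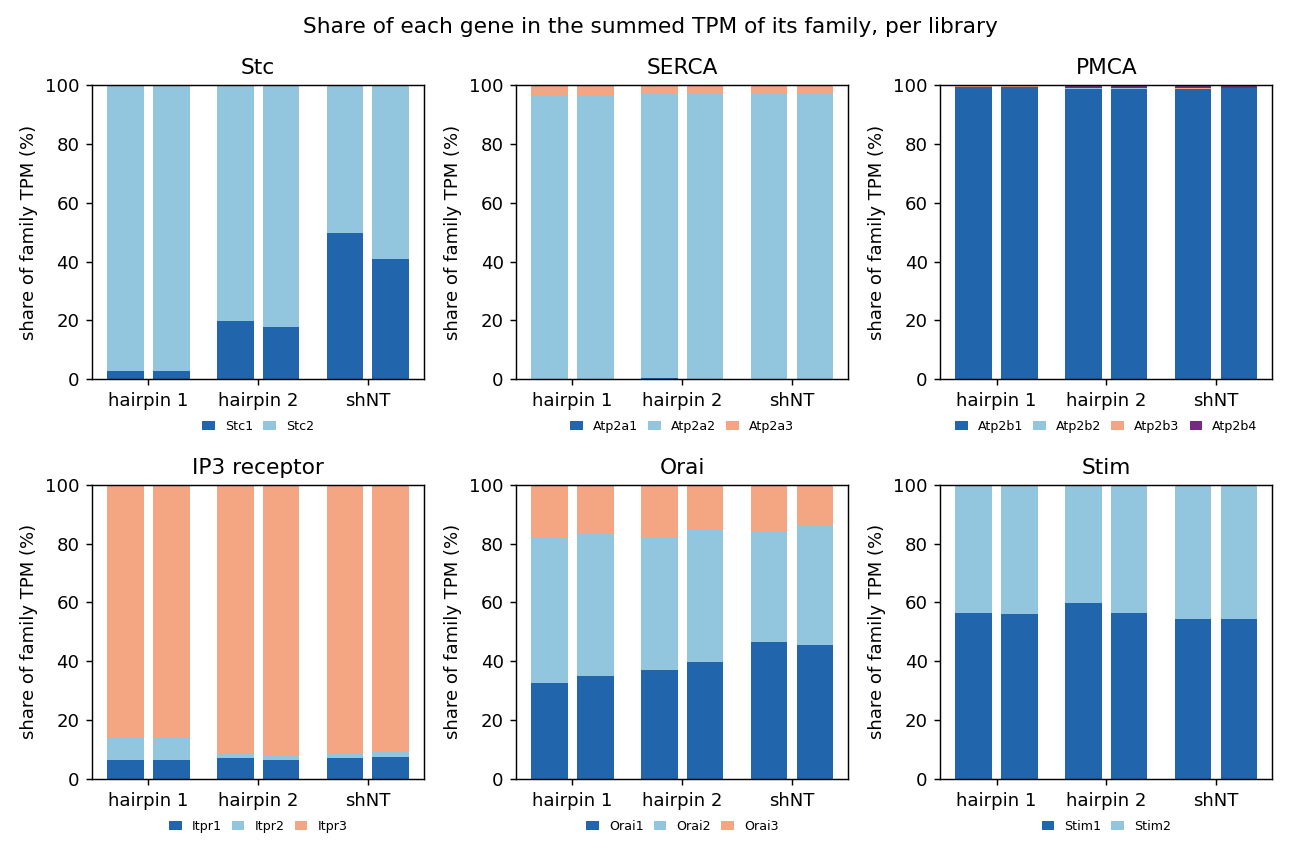
Share of each gene in the summed TPM of its family (vertical axis, percent, from 0) for the stanniocalcins, SERCA pumps, PMCA pumps, IP3 receptors, ORAI channels and STIM sensors; each bar is 1 library of hairpin 1, hairpin 2 or shNT. Stc2 filled 97.2% of its family with hairpin 1 and at least 80.2% with hairpin 2, against at most 59.0% in shNT, while Atp2a2 and Atp2b1 filled over 96% and 98% of their families in each library.

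The order of the members by level was much the same in each group except for Stc2. In shNT the TPM means were 204 for Atp2a2, 41.6 for Itpr3, 21.0 for Atp2b1, 20.3 for Orai1, 6.82 for Stim1, 2.41 for Stc2, 1.97 for Stc1 and 0.219 for Atp2b4. The libraries of Atp2b1 and Orai1 overlapped in level there, as did those of Stc2 and Stc1. With hairpin 1 Stc2, at 17.2 TPM, overlapped Orai1 at 17.9 TPM and stood above Stim1 at 9.07 TPM. With hairpin 2 Stc2, at 4.30 TPM, stayed below Stim1 at 7.70 TPM.

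**Figure D4:**
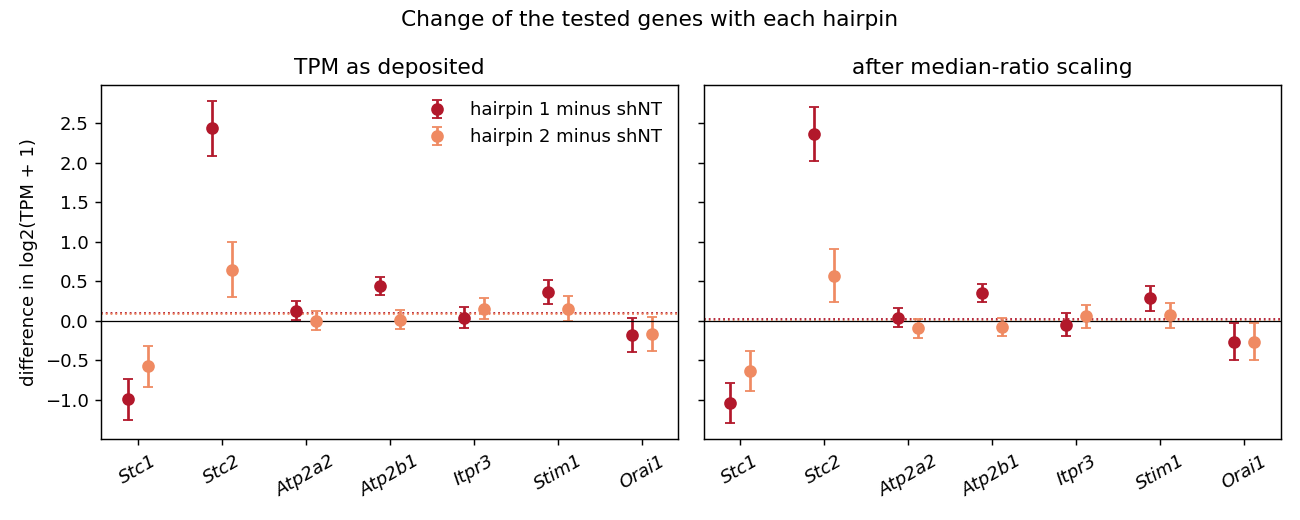
Difference in log2(TPM + 1) between each hairpin and shNT for the 7 tested members, from TPM as deposited (left) and after scaling to median ratios (right); points are limma estimates, bars 95% intervals, dotted lines the median of all tested genes. Stc1 lies below 0 and Stc2 above 0 for both hairpins under both scalings, and Atp2b1 is at 0.44 with hairpin 1 and 0.01 with hairpin 2 in deposited TPM.

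By hairpin, Stc2, Atp2b1 and Stim1 rose and Stc1 fell with hairpin 1, where 50.2% of all tested genes were called, 32.1% higher and 18.1% lower. After scaling to median ratios the same 4 members were called with hairpin 1, where 47.1% of genes were called, 24% higher and 23.2% lower. With hairpin 2 only Stc2 rose and Stc1 fell, where 9.63% of genes were called, 6.62% higher and 3% lower. After scaling to median ratios hairpin 2 called Stc1 alone, as lower, where 6.71% of genes were called, 2.01% higher and 4.7% lower. Both comparisons share the shNT libraries. Hairpin 2 minus hairpin 1 was higher for Stc1 and lower for Stc2, Atp2b1 and Stim1, where 40.1% of genes were called, 19.9% higher and 20.2% lower. The same 4 members were called after scaling to median ratios, where 39.6% of genes were called, 19% higher and 20.7% lower.

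Other genes of calcium handling were taken from 10 lists, which hold 144 genes of the table. Of these 91 were tested, and 32 rose and 15 fell in the joint comparison, with a median change of 0.07, against 0.10 for all genes. After scaling to median ratios 16 rose and 21 fell. With hairpin 1, 37 rose and 19 fell (28 and 24 after that scaling), and with hairpin 2, 4 rose and 3 fell (0 and 8 after it). Over all tested genes, as given above, 27.3% were higher and 12.1% lower in the joint comparison, 32.1% and 18.1% with hairpin 1, and 6.62% and 3% with hairpin 2. After that scaling the shares were 15.7% and 18%, 24% and 23.2%, and 2.01% and 4.7%. No list was tested as a set, and the counts of each list stand beside these shares as a description. The other 53 lay below the filter, among them genes chosen here after their values were seen: Casr, the calcium-sensing receptor, was listed at 0 in each library, and Slc8a1, a sodium-calcium exchanger, did not exceed 0.0272 TPM. Also below it, the parathyroid hormone receptor genes Pth1r and Pth2r did not exceed 0.105 and 0.0613 TPM. Apart from paralogs of the members, genes at or near 0 and the calcineurin and NFAT list, those given with values were among the 3 smallest p of their list. They were chosen after their values were seen. In the calcineurin and NFAT list, each gene called in the joint comparison in deposited TPM or after scaling to median ratios is given.

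Of 13 tested genes of mitochondrial calcium uptake 7 rose and 1 fell in the joint comparison (4 and 1 after scaling to median ratios), and 11 rose and 1 fell with hairpin 1 (7 and 1 after scaling to median ratios). Vdac2, an outer membrane channel, averaged 316 ± 0.583 TPM with hairpin 1 and 280.3 ± 3.13 TPM with hairpin 2, against 251 ± 7.67 TPM in shNT (SD, n = 2). It rose by 0.24 ± 0.04 (log2, SE; limma's adjusted p = 0.00835) in the joint comparison, without a call after quantile normalization or with small-RNA entries removed. Its hairpin 2 change of 0.16 did not pass (limma's adjusted p = 0.0880). Mcur1, a regulator of the uniporter, averaged 9.37 ± 0.232 TPM with hairpin 1 and 10.1 ± 0.445 TPM with hairpin 2, against 12.2 ± 0.606 TPM in shNT, and fell by 0.30 ± 0.05 in the joint comparison (limma's adjusted p = 0.0104). Its hairpin 2 change of -0.25 did not pass (limma's adjusted p = 0.0617; 0.0446 after scaling to median ratios).

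In the list of store-operated entry beyond the members, 6 of 12 tested genes rose and 1 fell in the joint comparison, and 2 rose and 1 fell after scaling to median ratios. Among regulators of SERCA and PMCA pumps, 3 of 10 rose and 1 fell, or 1 and 1 after scaling to median ratios. Sri, the calcium-binding protein sorcin, averaged 82.8 ± 0.222 TPM with hairpin 1 and 52.6 ± 2.73 TPM with hairpin 2, against 48.9 ± 4.93 TPM in shNT (SD, n = 2), and rose by 0.75 ± 0.08 (log2, SE) with hairpin 1 (limma's adjusted p = 0.00114). Nptn, the PMCA subunit neuroplastin, averaged 88.5 ± 4.02 TPM with hairpin 1 and 88.8 ± 1.99 TPM with hairpin 2, against 105 ± 1.80 TPM in shNT, and fell by 0.24 ± 0.04 in the joint comparison (limma's adjusted p = 0.0106).

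Of 5 other tested pumps and exchangers 2 rose in the joint comparison, or 1 after scaling to median ratios. Slc8b1, with the smallest p of these, rose by 0.40 ± 0.09 (log2, SE; limma's adjusted p = 0.0178), and its hairpin 2 change was 0.11 (0.461). Of 9 release channels and regulators 2 rose and 2 fell in the joint comparison, or 2 and 3 after scaling to median ratios. With hairpin 1, 2 rose and 2 fell, or 2 and 5 after that scaling. Itpripl2 fell by 0.36 ± 0.04 in the joint comparison (limma's adjusted p = 0.00222). Ahcyl2, a relative of the IP3 receptor inhibitor Ahcyl1, averaged 29.3 ± 0.571 TPM with hairpin 1 and 14.5 ± 0.0604 TPM with hairpin 2, against 13.8 ± 0.412 TPM in shNT (SD, n = 2), and rose by 1.03 ± 0.05 (log2, SE) with hairpin 1 (limma's adjusted p = 0.000122). Among 12 luminal calcium-binding proteins 2 rose and 3 fell, or 1 and 4 after scaling to median ratios. Hspa5, the chaperone BiP, stood at 269 and 278 TPM with hairpin 1 and at 391 and 398 TPM with hairpin 2, against 462 and 446 TPM in shNT, and fell by 0.46 ± 0.04 in the joint comparison (limma's adjusted p = 0.00189). Its hairpin 2 change of -0.20 did not pass (limma's adjusted p = 0.0601; 0.0371 after scaling to median ratios).

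For the enzymes that make IP3 and their partners, 3 of 11 tested genes rose and 4 fell in the joint comparison, or 2 and 4 after scaling to median ratios. The smallest p was that of Plcd3, a phospholipase C, which rose by 0.35 ± 0.04 (log2, SE) in the joint comparison (limma's adjusted p = 0.00281). It averaged 24.6 TPM with hairpin 1 and 19.9 TPM with hairpin 2, against 17.2 TPM in shNT. Plcg1, a phospholipase C activated by receptor tyrosine kinases, averaged 9.22 ± 0.0591 TPM with hairpin 1 and 15.9 ± 0.527 TPM with hairpin 2, against 16.3 ± 1.27 TPM in shNT (SD, n = 2), and fell by 0.76 ± 0.07 (log2, SE) with hairpin 1 (limma's adjusted p = 0.000688). Plce1, another phospholipase C, averaged 5.61 ± 0.259 TPM with hairpin 1 and 7.08 ± 0.0631 TPM with hairpin 2, against 10.2 ± 1.04 TPM in shNT, and fell by 0.62 ± 0.07 in the joint comparison (limma's adjusted p = 0.00314). Of 12 genes of the calcineurin and NFAT list 4 rose and 0 fell, but after scaling to median ratios 0 rose and 3 fell, with no called gene changing sign. The genes called higher were Ppp3r1, Camk1, Camk2d and Ppp3cb, at 0.19 to 0.25 (log2) in deposited TPM and 0.10 to 0.16 after that scaling. Those called lower after it were Rcan1, Rcan3 and Camk2g, at -0.30, -0.18 and -0.19, against -0.22, -0.10 and -0.10 in deposited TPM. With hairpin 1, 4 genes of this list rose and 3 fell, or 4 and 4 after scaling to median ratios. In the list of epithelial calcium entry and buffering, 2 of 16 genes were tested, and 1 rose and 1 fell in the joint comparison. S100g, a calcium-binding buffer protein, averaged 55.2 ± 8.12 TPM with hairpin 1 and 6.46 ± 3.08 TPM with hairpin 2, against 6.57 ± 3.08 TPM in shNT. Trpm7 averaged 18.4 ± 0.405 TPM with hairpin 1 and 22.1 ± 0.430 TPM with hairpin 2, against 22.4 ± 0.195 TPM in shNT. It fell by 0.27 ± 0.05 with hairpin 1 (limma's adjusted p = 0.00538).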

How the data were processed

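RNA from 6 libraries was analysed as deposited, 2 per hairpin, with groups and replicate numbers from the sample titles. The authors deposited 1 table of TPM for 24493 genes. The submitters' processing notes name mm10, Salmon and, without a stated role, DESeq2 in R 3.5. TPM keeps no trace of read number, so no counting interval is given, and Salmon can divide reads between similar genes.

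Values were tested on log2(TPM + 1) with limma 3.58.1 in R 4.3.3, with 3 group means and a variance prior following mean expression, without further scaling. The 18323 genes above 0 TPM in any library were used for Pthlh and Atp2b4, a choice made after seeing the data. Alternatives covered pseudocount, filter, scaling, variance prior, replicate block, compared groups alone, pooled hairpins and omission of each library. The members and gene lists were chosen with earlier results of these data known. Listed genes given with values came from the 3 with the smallest p in each list, apart from the exceptions named in the results. For Stc1 and Stc2 the 3 nearest profiles were taken. Replicate numbers were not used to pair the libraries, except in the replicate block.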

Additional observations from a re-analysis of the deposited data

Results flagged for a closer look

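Of the 7 tested members, 4 responded differently to the hairpins by limma's test of hairpin 2 minus hairpin 1. The difference was 0.41 for Stc1 (log2; adjusted p = 0.0267), -1.79 for Stc2 (0.000697), -0.43 for Atp2b1 (0.00190) and -0.21 for Stim1 (0.0437). Over all tested genes 40.1% passed this test. Without any 1 hairpin library, the Stc2 and Atp2b1 differences passed and those of Stc1 and Stim1 did not. Pthlh averaged 17.8% of shNT with hairpin 2 and 6.14% with hairpin 1. These means rest on low values, at most 0.263 TPM, and the libraries of the hairpins overlapped. Tested without the expression filter, hairpin 2 minus hairpin 1 was 0.13 ± 0.12 for Pthlh (log2, SE) and did not pass (limma's adjusted p = 0.533). The part of Pthlh in the members' differences was not tested.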

How the results depend on the processing

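Of 7 tested members, 4 were called in the joint comparison and 3 to 5 without any 1 library; with the hairpins pooled as 1 group the count was 0. With hairpin 1 the count was 4, and 3 to 5 under all alternatives run. With hairpin 2 it was 2 in deposited TPM. It was 1 without a filter, with a mean TPM of at least 5, after scaling to median ratios, after quantile normalization and without a variance trend, 0 with the compared groups alone and 0 to 1 without any 1 library, where limma gave 2 or 3 members an unadjusted p under 0.05. Hairpin 2 minus hairpin 1 called 4 members, 2 after quantile normalization and 2 to 5 without any 1 library. Over all genes limma called 1112 with hairpin 2, but 98 with the compared groups alone 276 with the replicate block, 585 without a filter, 521 with small-RNA entries removed and 6 to 2653 without any 1 library. In the joint comparison it called 4550, but 2884 with small-RNA entries removed and 2727 to 4893 without any 1 library. No member that passed under any alternative passed with the opposite sign. At a mean TPM of at least 5, Stc1 and Atp2b4 gave no value, and the pooled fit applies to the joint comparison alone.

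Same-numbered libraries did not deviate together (r = 0.0211, 0.0152 and -0.0439 across genes, for shNT with hairpin 1, shNT with hairpin 2 and hairpin 1 with hairpin 2). With the replicate block 4 members were called in the joint comparison, 4 with hairpin 1, 0 with hairpin 2 (3 at unadjusted p under 0.05) and 3 in hairpin 2 minus hairpin 1.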
